A study of Mus musculus with 24 samples.

Results

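The cytosolic ribosomal protein genes were followed in C2C12 cells, an immortalised mouse myoblast line. They were taken as the protein-coding genes whose symbol begins with Rpl, Rps or Rplp followed by a digit or an a, leaving out the Rps6k kinases and Rps19bp1. This gave 93 of the 56748 genes measured. The set held 43 large-subunit proteins, 31 small-subunit proteins, 3 P-stalk proteins, 9 paralogs or related genes, and 7 genes that are named as pseudogenes but annotated as protein-coding. Fau, which encodes a ribosomal protein fused to a ubiquitin-like protein, falls outside that naming rule and is given separately.

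A cytosolic ribosome is built from a small subunit that reads the messenger RNA and a large subunit that forms the peptide bonds, each made of ribosomal RNA and ribosomal proteins. The messenger RNAs of ribosomal proteins carry a terminal oligopyrimidine (TOP) sequence at the 5′ end, through which mTOR and Larp1 set how strongly they are translated, and Myc is known to promote the transcription of ribosome genes. Free Rpl5 and Rpl11 bind Mdm2 together with 5S rRNA when ribosome assembly is disturbed, which stabilises p53.

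All 24 libraries came from cells with a lentiviral vector that expresses uncoupling protein 1 (UCP1), a carrier that lets protons back across the inner mitochondrial membrane, when doxycycline is present. Water or doxycycline was given 24 h after seeding, the treatments started 24 h later, and RNA was taken after 16 h of treatment. With water, the BSA group had bovine serum albumin at 51 µM, the OA group oleic acid at 300 µM, and the OOA group the same oleic acid with oligomycin, an inhibitor of the mitochondrial ATP synthase, at 1 µM. The same treatments with doxycycline were Dox_BSA, Dox_OA and Dox_OOA, and each of the 6 groups had 4 libraries. No group had doxycycline without the UCP1 vector, so the effects of doxycycline and of UCP1 cannot be told apart, and how much albumin came with oleic acid is not stated. Nothing in the labels says whether replicate libraries were grown separately, so the p-values describe the spread between these libraries, and that spread may be technical.

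Values were FPKM, fragment counts scaled for gene length and a library size. The reads recovered from the gene rows ran from 20370651 to 29410667 per library. The library size behind the FPKM was not that read total. It averaged 2.571e+07 against 2.566e+07 reads in OA, 2.22e+07 against 2.27e+07 in OOA and 2.60e+07 against 2.57e+07 in Dox_OOA. How it was set is not stated. Ucp1 was at 3.88 to 7.67 FPKM in the 12 water libraries and at 207 to 341 FPKM in the 12 doxycycline libraries. It was lower in Dox_OOA, at 207 to 224 FPKM, than in Dox_OA, at 309 to 339 FPKM. The 4 adipocyte genes listed were at 0 in all libraries. The summed level of 6 myoblast genes moved with the treatments, from 205 to 210 FPKM in OA, 175 to 183 FPKM in OOA and 237 to 250 FPKM in Dox_OOA, with no overlap. The single genes went both ways. In OOA against OA 2 of the 6 rose and 3 fell, with Myf5 going from an average of 4.76 to 18.6 FPKM. In Dox_OOA against OOA 5 of the 6 rose and 1 fell. The summed level of 5 myotube genes went from 24.1 to 37.9 FPKM in OA to 10.7 to 12.8 FPKM in OOA. The part of these marker levels in the results below was not tested. In bulk RNA, fewer cells and less RNA per cell cannot be told apart.

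Promoter sequence was available for 66 of the 93 members (RefSeq, GRCm38.p6, 250 bases before to 50 bases after the annotated start). The stretches shown here run from 50 bases before to 30 bases after the start, 5′ to 3′ on the gene's own strand. Rps6, Rps15a and Rps18 are shown because they hold one of the searched motifs, which is in capitals, and Rpl12 and Rpl7l1 because both are followed through the results below and hold none of them in this stretch.
Rps6 (chr4:86857338-86857417, minus strand): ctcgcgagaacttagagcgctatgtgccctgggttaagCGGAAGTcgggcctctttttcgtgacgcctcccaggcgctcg
Rps15a (chr7:118116118-118116197, minus strand): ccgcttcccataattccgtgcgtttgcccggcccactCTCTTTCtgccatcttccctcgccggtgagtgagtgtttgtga
Rps18 (chr17:33955636-33955715, minus strand): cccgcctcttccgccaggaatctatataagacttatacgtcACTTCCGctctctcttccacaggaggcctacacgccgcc
Rpl12 (chr2:32961662-32961741, plus strand): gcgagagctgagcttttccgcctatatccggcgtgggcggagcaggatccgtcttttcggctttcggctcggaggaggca
Rpl7l1 (chr17:46782627-46782706, minus strand): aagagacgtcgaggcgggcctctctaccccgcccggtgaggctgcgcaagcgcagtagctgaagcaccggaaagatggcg

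Each motif was searched on both strands of the whole 300-base promoter, and none of the 4 contains another. CGGAAGT (reverse complement ACTTCCG), a core bound by ETS-family factors such as Gabpa, was in 22 of the 66 member promoters (33.3%) and in 7.2% of 27025 promoters. CTCTTTC (reverse complement GAAAGAG), a pyrimidine stretch like those of TOP starts, was in 18 member promoters (27.3%) and in 9.28% of all. The shorter CTTCCT (reverse complement AGGAAG) was in 35 member promoters (53%) and 38.4% of all, and CACGTG, the E-box that Myc and Max bind, in 6 (9.09%) and 8.09% of all. These are counts of letters and not of bound sites.

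Ribosomal protein RNAs were among the most abundant in these cells. Rplp1, a P-stalk protein that recruits translation factors to the large subunit, averaged 1696 ± 127 FPKM in BSA (SD, n = 4), and Rplp0, its anchor on the ribosome, averaged 1347 ± 61.3 FPKM. Of the 93 members 59 averaged over 100 FPKM in BSA and 15 under 10 FPKM, and 5 were at 0 in all 24 libraries, Rpl10l and Rpl39l among them. The low ones were not only paralogs. Rpl24, of the large subunit, averaged 0.54 FPKM in BSA, 0.70 FPKM in OA and 1.45 FPKM in OOA. Why it was so low was not tested, and it is among the members called in OOA against OA and in Dox_OOA against OOA below. A value per length rests on the gene length in the deposited table, which ran from 348 to 6270 bases, and 85 members passed the filter on low values (4 or more libraries at 1 FPKM or above). Rpl10l, Rpl36al, Rpl39l, Rpl3l, Rps23rg1, Rpl36-ps4, Rplp2-ps1 and Rps18-ps6 did not.

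The summed level of the 93 members was highest in OOA. It ran from 18596 to 19838 FPKM in BSA, from 19411 to 20327 FPKM in OA and from 23583 to 24783 FPKM in OOA. With doxycycline it ran from 17954 to 20625 FPKM in Dox_BSA, from 18334 to 20763 FPKM in Dox_OA and from 18589 to 21346 FPKM in Dox_OOA. Every OOA library stood above every library of the other 5 groups, and the ranges of the other 5 groups overlapped each other. The members took 3.38% ± 0.0567 of reads in OA (SD, n = 4), 4.04% ± 0.0860 in OOA, and 3.30% ± 0.163 and 3.47% ± 0.191 in Dox_OA and Dox_OOA. The summed level of the 78 mitochondrial ribosomal protein genes, whose products form the separate ribosome inside mitochondria, was not raised in OOA. It averaged 1070 ± 18.2 FPKM in OA and 983 ± 22.5 FPKM in OOA, and those libraries did not overlap.

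**Figure D1:**
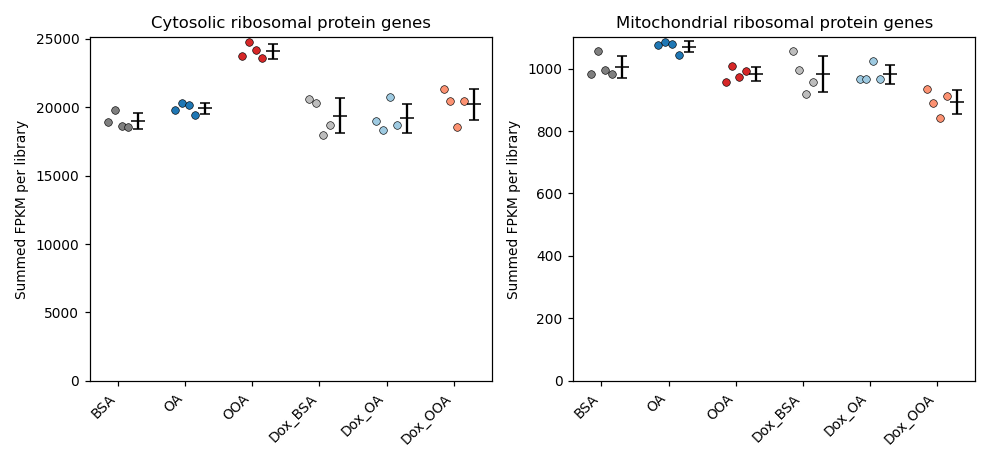
Summed FPKM per library (vertical axes, from 0) of the 93 cytosolic and the 78 mitochondrial ribosomal protein genes in the 6 groups; points are libraries and the bar beside them is the mean with its SD (n = 4). The cytosolic sum in OOA, 23583 to 24783 FPKM, lies above all other libraries, and the mitochondrial sum in OOA lies below that in OA.

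Oligomycin with oleic acid was compared with oleic acid alone to ask how the genes respond to a block of ATP synthase. In the water arm 62 of the 85 members rose, 1 fell and 22 did not pass the test (limma on log2(FPKM + 1), Benjamini-Hochberg adjusted p under 0.05 over all genes). Over all 12904 genes tested 28.5% rose and 28.4% fell, and 56.9% were called in all. The median change of the members was 0.27 on the log2 scale, which is 20.9%, against 0.01 for all genes. All 4 OOA libraries lay above all 4 OA libraries for 62 members, which was the case for 26.3% of all genes.

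In the small subunit 26 of 31 genes rose and none fell, with a median log2 change of 0.32. Rps6, the protein that S6 kinases phosphorylate, read 479, 484, 477 and 528 FPKM in the OA libraries and 645, 613, 686 and 637 FPKM in the OOA libraries. The 2 groups did not overlap, and the log2 change was 0.39 ± 0.05 (SE, limma adjusted p = 2.0e-07). Rps12, which lies in the head of the small subunit, rose by 0.55 ± 0.09 on the log2 scale, Rps15a by 0.49 ± 0.06 and Rps20 by 0.47 ± 0.05. Rps19, whose human counterpart is often mutated in Diamond-Blackfan anaemia, rose by 0.33 ± 0.04, from 61.0 ± 1.19 to 77.1 ± 1.46 FPKM (SD, n = 4).

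In the large subunit 31 of 43 genes rose and none fell, with a median log2 change of 0.27. Rpl12, at the base of the P-stalk, read 172, 176, 172 and 191 FPKM in OA and 297, 266, 273 and 265 FPKM in OOA. Every OOA library stood well above the highest OA library, and its log2 change of 0.63 ± 0.05 (limma adjusted p = 7.5e-11) was second only to that of Rps27. Rpl4, which lines the tunnel through which the new chain leaves, rose by 0.50 ± 0.04 and Rpl3, near the peptidyl transferase centre, by 0.46 ± 0.04. The P-stalk genes rose less, with Rplp0 from 1403 ± 35.0 to 1603 ± 18.9 FPKM (log2 change 0.19 ± 0.04), Rplp1 by 0.21 ± 0.07 and Rplp2 by 0.18 ± 0.08. The call of Rplp1 was lost without OA replicate 4 (0.155), and that of Rplp2 without OA replicate 1, 3 or 4 or OOA replicate 2, 3 or 4 (0.127 to 0.195). That of Rplp2 was also lost by limma-voom on the recovered reads (0.146, adjusted p = 0.119) and by limma without the filter on low values (adjusted p = 0.107).

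Of the pair of proteins that bind 5S rRNA, Rpl5 passed the test and Rpl11 did not. Rpl5 read 183, 186, 183 and 181 FPKM in OA and 252, 252, 245 and 246 FPKM in OOA, a log2 change of 0.44 ± 0.04 (limma adjusted p = 1.3e-09) with no overlap. Rpl11 read 116, 121, 124 and 110 FPKM in OA and 117, 139, 110 and 118 FPKM in OOA. Those libraries overlapped, and the change of 0.04 ± 0.09 was not past the threshold (limma adjusted p = 0.76). The difference between the responses of Rpl5 and Rpl11 was not tested. Of the other members that did not pass, Rpl41 changed by -0.01 ± 0.10 and Rpl37a by -0.06 ± 0.09, while Rpl30 (0.57 ± 0.30), Rpl17 (0.53 ± 0.39) and Rps27a (-0.36 ± 0.40) varied so much between libraries that changes of this size could not be detected.

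**Figure D2:**
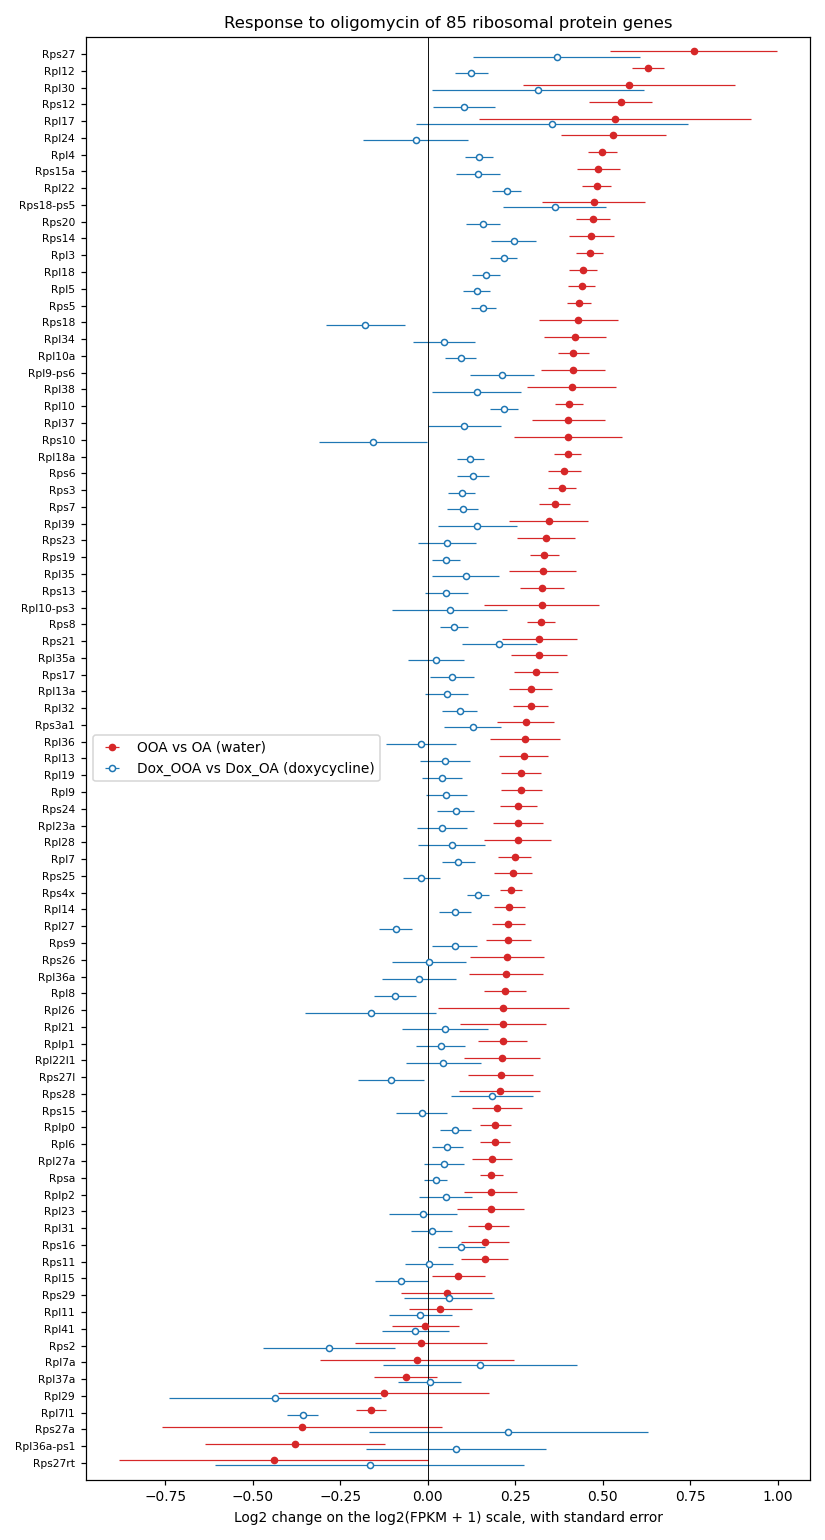
Log2 change (horizontal axis, log2(FPKM + 1) scale, bars are standard errors) of the 85 tested members, ordered by the water arm; filled red points are OOA against OA and open blue points Dox_OOA against Dox_OA. The red points have a median of 0.27 and the blue points one of 0.07, and Rpl7l1 lies below 0 in both.

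Among the paralogs, Rpl7l1, a paralog of Rpl7, was the only member of the 85 to fall, from 46.7, 45.4, 42.4 and 43.0 FPKM in OA to 37.8, 39.6, 39.9 and 40.9 FPKM in OOA. The OOA libraries all lay below the OA libraries, by -0.16 ± 0.04 on the log2 scale (limma adjusted p = 0.0030), while Rpl7 rose by 0.25 ± 0.05. Rpl22, an RNA-binding protein that cells can do without, rose by 0.48 ± 0.04, and its paralog Rpl22l1 changed by 0.21 ± 0.11 without passing the test. Rps27l, a paralog of Rps27 known as a p53 target in human cells, changed by 0.21 ± 0.09, also short of the threshold (limma adjusted p = 0.062), although all 4 OOA libraries were above all 4 OA libraries. Rpl3l, the paralog of striated muscle, and Rpl36al were too low to be tested.

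Rps27 had the largest fitted rise, and its reads are uncertain because a near-copy shares its sequence. Rps27 lies at chr3:90119829-90120958 and Rps27rt at chr9:114811434-114811807, both on the minus strand in the coordinates of the deposited table, for which the submitters' processing notes name GRCm39. The promoter windows (GRCm38.p6) share a run of 38 bases that begins at base 2 after the start of Rps27 and at base 1 after that of Rps27rt, and its first bases are in capitals here.
Rps27 (chr3:90213619-90213698, minus strand): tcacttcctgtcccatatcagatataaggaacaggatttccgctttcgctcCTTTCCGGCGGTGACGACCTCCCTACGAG
Rps27rt (chr9:114982710-114982789, minus strand): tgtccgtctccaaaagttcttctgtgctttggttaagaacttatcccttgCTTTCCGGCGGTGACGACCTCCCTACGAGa

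Rps27 read 132, 128, 150 and 62.3 FPKM in OA and 179, 172, 228 and 190 FPKM in OOA. Rps27rt read 56.3, 104, 71.3 and 225 FPKM in OA and 73.8, 78.6, 92.4 and 50.7 FPKM in OOA. OA replicate 4 was lowest for Rps27 and highest for Rps27rt, and there Rps27rt held 56.4% of the reads of the pair, against 13.2% to 22.4% in the other OA libraries. Rps27rt also held 40.9% in BSA replicate 4 and 34.1% in Dox_OA replicate 4, and 8.74% to 22.4% in the 21 libraries other than these 3. The fitted changes were 0.76 ± 0.24 for Rps27 (limma adjusted p = 0.010) and -0.44 ± 0.44 for Rps27rt. With the reads of both rows added, a sum chosen after the values were seen, OA held 166 ± 16.0 and OOA 223 ± 29.9 CPM (SD, n = 4). CPM are reads scaled to the library's recovered reads and not to the size behind the FPKM. The groups did not overlap, and the log2 change was smaller, 0.42 (two-sided exact permutation test over 70 assignments, p = 0.0286, the smallest this design allows).

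**Figure D3:**
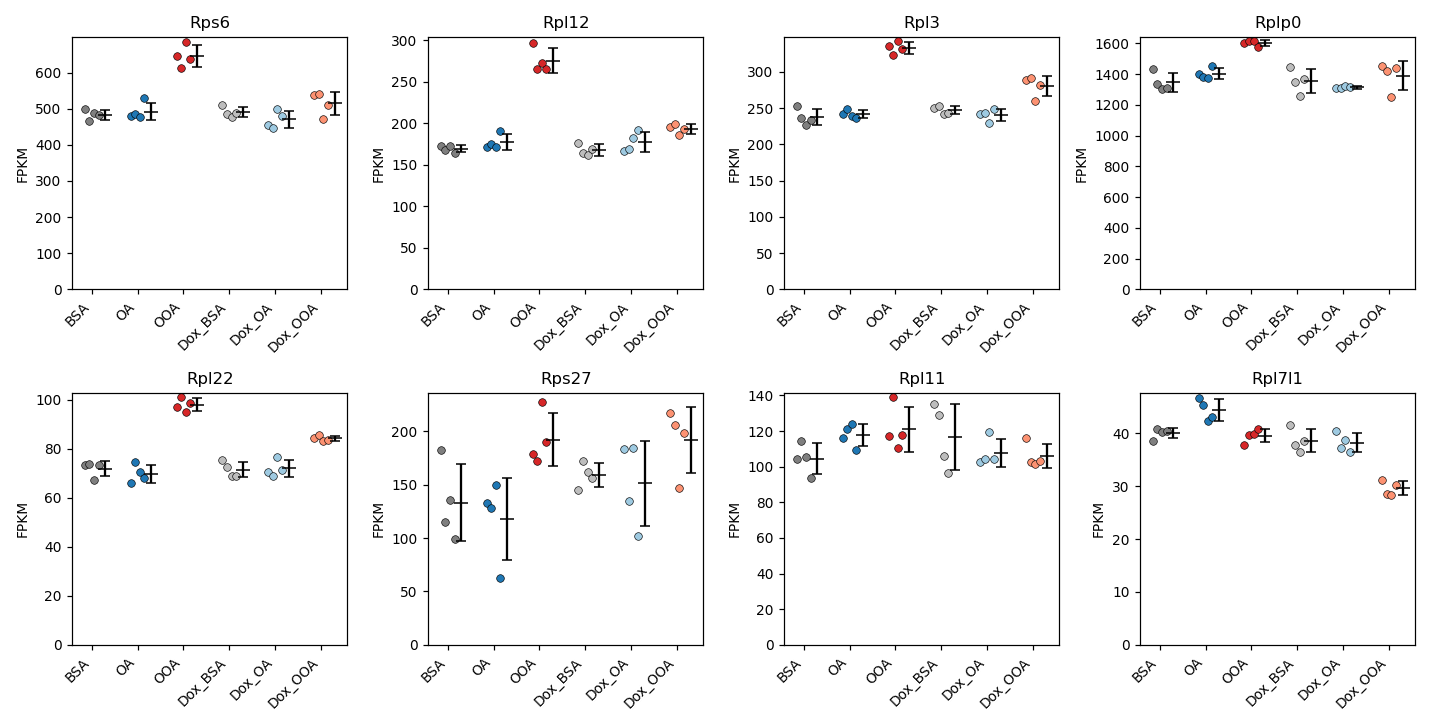
FPKM per library (vertical axes, from 0) of 8 members in the 6 groups; points are libraries and the bar beside them is the mean with its SD (n = 4). Rps6, Rpl12, Rpl3 and Rpl22 are highest in OOA, Rps27 is low in 1 OA library at 62.3 FPKM, Rpl11 overlaps between groups, and Rpl7l1 is lowest in Dox_OOA.

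Reads were also shared with rows named as pseudogenes, which held reads for 53 members. In 18 of them the member itself held under 90% of those reads, down to 3.35% for Rps10, 4.14% for Rps2, 12.2% for Rpl21 and 13.7% for Rps18. The deposited level of such a gene is therefore uncertain. With pseudogene reads added to their member, an alternative chosen after seeing the data, 63 of 81 members rose and 1 fell in OOA against OA. That fit left out the pseudogene rows, and how many of all genes rose or fell in it is not given here. Rps2, a small-subunit protein at the messenger RNA entry, then changed by 0.0974 in place of -0.02, and passed the test in neither case. Rpl17 (0.57), Rpl30 (0.50) and Rps26 (0.36) passed it only with those reads added.

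**Figure D4:**
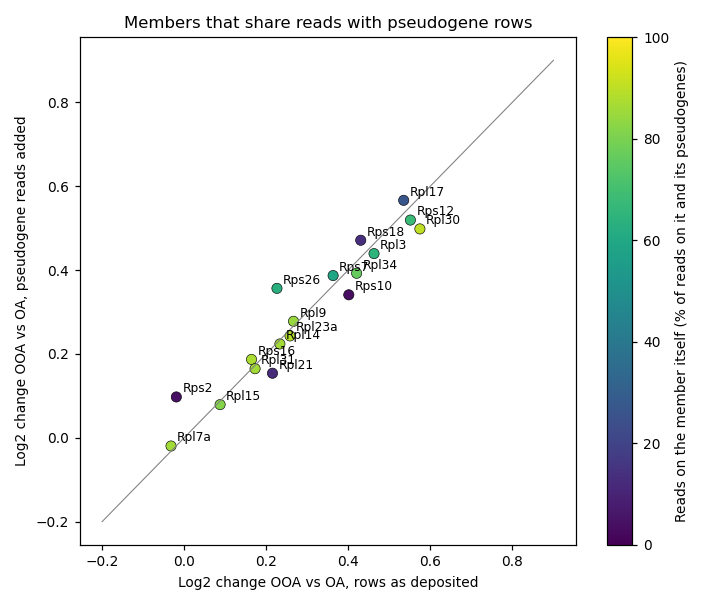
Log2 change of OOA against OA with the rows as deposited (horizontal axis) and with the reads of pseudogene rows added (vertical axis), for the 18 members that held under 90% of those reads; the line marks equal values and colour gives the percentage on the member itself. Rps10, Rps2, Rpl21 and Rps18 are the darkest points, and Rps2 moves from -0.02 to 0.0974.

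With doxycycline the same comparison gave fewer calls. In Dox_OOA against Dox_OA 13 of 85 members rose and 1 fell, where 16.2% of all genes rose and 17.0% fell, and the members' median log2 change was 0.07. The share of members that rose was near that of all genes. Leaving out Dox_OA replicate 3 raised the 13 to 21, and how many of all genes then rose is not given here. Rpl22 read 70.5, 69.1, 76.8 and 71.5 FPKM in Dox_OA and 84.6, 85.6, 83.3 and 83.7 FPKM in Dox_OOA, with no overlap and a log2 change of 0.23 ± 0.04 (limma adjusted p = 0.00020). Rps14, whose human counterpart is deleted in 5q- syndrome, rose by 0.25 ± 0.06, Rpl3 by 0.22 ± 0.04 and Rpl10, which joins the large subunit late in assembly, by 0.22 ± 0.04. Rpl7l1 again fell, with 38.2 ± 1.76 FPKM in Dox_OA and 29.6 ± 1.33 FPKM in Dox_OOA (log2 change -0.36 ± 0.04, limma adjusted p = 1.1e-06).

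The test of the difference between the arms, an interaction in the same fit, called 31 of 85 members lower with doxycycline and none higher, against 14.6% lower and 15.1% higher of all genes. The members' median interaction was -0.22 on the log2 scale. Of the 62 members that rose in the water arm 30 were among the 31. The interaction contains the same OOA and OA libraries that gave those rises, so this overlap is not independent evidence. The log2 change of Rpl12 was 0.63 with water and 0.12 with doxycycline, where its call (limma adjusted p = 0.0449) was lost without the filter on low values, with only the compared groups fitted, and in 5 leave-outs. It had an interaction of -0.51 ± 0.07 (limma adjusted p = 2.9e-06). The interaction was -0.30 ± 0.05 for Rpl5, -0.26 ± 0.07 for Rps6 and -0.25 ± 0.05 for Rpl3, while for Rps14 it was -0.22 ± 0.09 and not past the threshold (limma adjusted p = 0.072). Rpl7l1 was the remaining case, with a larger fall under doxycycline (-0.20 ± 0.06).

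Within the oligomycin groups, the members were lower with doxycycline. In Dox_OOA against OOA 57 of 85 fell and none rose, where 23.7% of all genes fell and 22.0% rose, and the members' median log2 change was -0.27 against -0.01 for all genes. At an unadjusted p under 0.05, 63 members (74.1%) and 51.4% of all genes passed in either direction. By limma-voom on the recovered reads 51 members were lower and 0 higher, where 20.01% of all genes were lower and 25.8% higher. This comparison shares the OOA libraries with that of OOA against OA, so the 51 members called in both in opposite directions are not independent evidence.

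Rpl12 read 297, 266, 273 and 265 FPKM in OOA and 196, 199, 186 and 193 FPKM in Dox_OOA, with no overlap and a log2 change of -0.51 ± 0.05 (limma adjusted p = 5.8e-09). Rpl8, beside the peptidyl transferase centre, went from 915 ± 42.4 to 665 ± 29.6 FPKM (-0.46 ± 0.06), and Rpsa, which also serves as a laminin receptor, from 722 ± 25.3 to 590 ± 16.2 FPKM (-0.29 ± 0.03). Rplp0 fell by 0.21 on the log2 scale and Rps6 by 0.33. Rps2 (-0.62 ± 0.19) and Rps18 (-0.58 ± 0.11) had the largest fitted falls, and both hold few of the reads of their families.

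Among the paralogs, Rps27l read 101, 90.3, 85.6 and 95.8 FPKM in OOA and 64.9, 70.8, 64.8 and 69.0 FPKM in Dox_OOA, without overlap (-0.46 ± 0.09, limma adjusted p = 0.00032). Rpl7l1 went from 39.5 ± 1.28 to 29.6 ± 1.33 FPKM (-0.41 ± 0.04), and Rpl22l1 changed by -0.31 ± 0.11, a call lost without OOA replicate 1 or 2 or Dox_OOA replicate 3 or 4 (-0.26 to -0.29). Rps27 itself changed by -0.01 ± 0.24 and Rpl11 by -0.19 ± 0.09, neither past the threshold.

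Without oligomycin few members were called. Oleic acid against albumin raised 2 of 85 members with water and lowered none, where 4.67% of all genes rose and 3.62% fell. They were Rps24 (94.4 ± 1.87 to 107 ± 4.78 FPKM, 0.17 ± 0.05) and Rpl7l1 (40.0 ± 0.949 to 44.4 ± 2.05 FPKM, 0.15 ± 0.04), and neither call held when the libraries were rescaled to a fixed sum or when some single libraries were left out. With doxycycline 0 members were called in Dox_OA against Dox_BSA, where 6.71% of all genes were, and limma-voom also called 0. At an unadjusted p under 0.05, 6 members (7.06%) passed there, against 18.8% of all genes.

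Doxycycline against water gave 0 calls in albumin, where 2.18% of all genes were called, and limma-voom also called 0. At an unadjusted p under 0.05, 2 members (2.35%) passed there, against 13.9% of all genes. In oleic acid 3 members fell, where 7.01% of all genes fell and 4.29% rose. Rpl7l1 went from 44.4 ± 2.05 to 38.2 ± 1.76 FPKM (-0.21 ± 0.04, limma adjusted p = 0.0029), Rpl6 changed by -0.18 ± 0.04 and Rpsa by -0.13 ± 0.03, a call that was lost with quantile normalization (-0.0448). The interaction of oleic acid with doxycycline called 0 of 85 members and 0.635% of all genes, and limma-voom called 0. At an unadjusted p under 0.05, 6 members (7.06%) passed it, against 9.07% of all genes.

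Other genes of the translation machinery were read from lists. Of 19 translation factors and related genes with TOP messenger RNAs, 14 rose and 2 fell in OOA against OA (28.5% and 28.4% of all genes), with a median log2 change of 0.29. Eef2, which moves the ribosome along the messenger RNA, changed by 0.67 and Rack1, a protein of the small subunit, by 0.48, while Hnrnpa1 fell by 0.48. In Dox_OOA against OOA 15 of the 19 fell and none rose (23.7% and 22.0% of all genes). Fau rose by 0.46 in OOA against OA and fell by 0.32 in Dox_OOA against OOA.

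The 40 listed ribosome biogenesis genes, whose products make and process ribosomal RNA, were counted in the same way. In OOA against OA 28 rose and 2 fell, where 28.5% and 28.4% of all genes did, with Nop14 at 0.91 and Noc2l at 0.63. In Dox_OOA against OOA 38 of 40 fell, against 23.7% of all genes, with a median log2 change of -0.74, and in Dox_OOA against Dox_OA 25 fell and none rose, against 17.0% and 16.2% of all genes. The difference between them and the members was not tested. The 77 tested mitochondrial ribosomal protein genes split, with 14 higher and 25 lower in OOA against OA (median -0.05) and 4 higher and 30 lower in Dox_OOA against OOA.

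Of 15 listed regulators 5 rose (33.3%) and 4 fell (26.7%) in OOA against OA, near the shares of all genes. Myc changed by 1.11 in that comparison and by -0.998 in Dox_OOA against OOA, Larp1 by 0.40 and -0.47, and Eif4ebp1, a brake on translation that mTOR releases, by 1.33 and -1.09. The related Eif4ebp2 went the other way in OOA against OA, from an average of 27.5 FPKM in OA to 15.7 FPKM in OOA. Gabpa fell by 0.21 in OOA against OA. All 4 p53 pathway genes rose in OOA against OA and fell in Dox_OOA against OOA, with Cdkn1a at 1.17 and -0.90 and Mdm2 at 0.70 and -0.66. Whether these changes bear on the members was not tested.

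**Figure D5:**
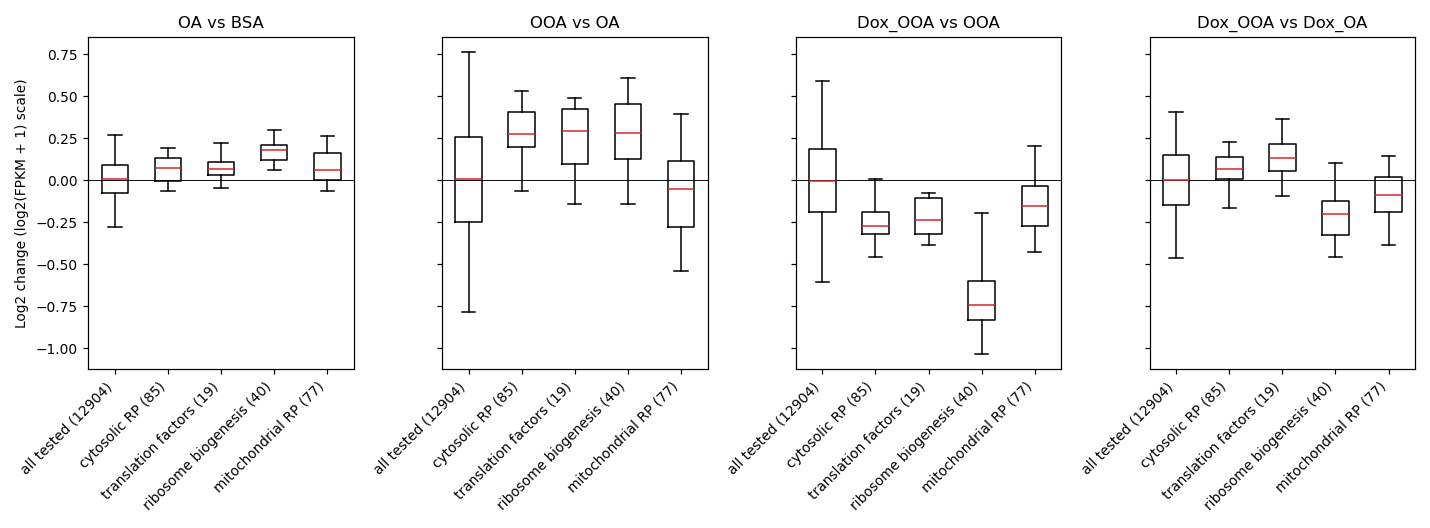
Log2 change (vertical axis, log2(FPKM + 1) scale) in 4 comparisons for all genes tested and 4 gene groups; the number of genes is in brackets, the red line is the median, boxes span the quartiles and whiskers the 5th to 95th percentile of genes. The cytosolic members (RP) have a median of 0.27 in OOA against OA and -0.27 in Dox_OOA against OOA, and the ribosome biogenesis genes one of -0.74 in the latter.

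Members with and without a small nucleolar RNA gene inside them, which shares their primary transcript, were set side by side. The 30 with one had a median log2 change of 0.31 in OOA against OA and 24 rose, and the 55 without had a median of 0.26 and 38 rose. Across the 85 members the change had a Spearman rho of 0.22 with gene length and of 0.11 with mean reads, given as a description over genes that share libraries.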

How the data were processed

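The deposited values were FPKM that the authors computed per Ensembl gene, per the file headers. For the build, GRCm39 (also as mm39) appears in the submitters' processing notes. Tools listed in the submitters' processing notes are HTSeq, STAR, edgeR, STAR-Fusion, DESeq2 and HISAT2, with no version and no role. The strand setting and the treatment of reads with several matches are not stated. Each FPKM times gene length gave whole reads within 0.01 for 100% of values.

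Log2(FPKM + 1) was tested with limma 3.58.1 in R 4.3.3 (trended, robust eBayes) on the 12904 genes that reached 1 FPKM in 4 or more libraries, with 6 group means and 18 residual degrees of freedom. P-values were two-sided, Benjamini-Hochberg adjusted within each of 9 contrasts, threshold 0.05. Folds on this scale understate changes of low genes. The test was checked on simulated data. limma-voom on the recovered reads, other pseudocounts, filters, scalings, a replicate block and leaving out libraries were the alternatives. The members and gene lists were chosen with earlier results of these data known. Any member or listed gene could be named. Library values are given for the genes with the largest changes, paralog pairs, the P-stalk, the 5S-binding pair and Rps6. Promoters come from RefSeq (GRCm38.p6), and the deposited coordinates from another build were not joined to them.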

Additional observations from a re-analysis of the deposited data

Results flagged for a closer look

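In groups of 4 libraries, 11 of 150 groups examined had a library apart from the other 3 by Dixon's criterion. By chance this is met in about 1 of 20 groups. The 150 covered the genes with library values and the summed level of the members, each in the 6 groups. The lowest library stood apart for Rpl7 in BSA replicate 4 (354 FPKM), Rpl22 in BSA replicate 3 (67.2 FPKM), Rplp1 in OA replicate 4 (1601 FPKM) and Rplp0 in Dox_OOA replicate 3 (1250 FPKM). The highest stood apart for Rps6 in OA replicate 4 (528 FPKM), Rps4x in OA replicate 2 (618 FPKM) and OOA replicate 1 (738 FPKM), and Rps18 in Dox_BSA replicate 1 (15.2 FPKM). The same held for Rps24 in Dox_OA replicate 3 (116 FPKM) and for Rpl11 in Dox_OA replicate 3 (119 FPKM) and Dox_OOA replicate 1 (116 FPKM).

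The response to oligomycin differed between the water and doxycycline arms, by the limma interaction at adjusted p under 0.05, for 31 members, all lower with doxycycline. Among the genes with library values the interaction on the log2 scale was -0.61 for Rps18, -0.51 for Rpl12, -0.45 for Rps12, -0.30 for Rpl5, -0.26 for Rps6 and Rpl22, -0.25 for Rpl3, -0.20 for Rpl7l1 and -0.19 for Rpl10. The rows of Rps18, Rpl3 and Rps12 held only 13.7%, 64.8% and 67.6% of the reads on them and their pseudogenes, so these values are uncertain. The call of Rpl10 was lost with quantile normalization (-0.0963).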

How the results depend on the processing

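Leaving out each replicate in turn gave 55 to 62 members higher in OOA against OA, 50 to 57 lower and 0 to 1 higher in Dox_OOA against OOA (1 without OOA replicate 2), 10 to 21 higher in Dox_OOA against Dox_OA (21 without Dox_OA replicate 3), 24 to 36 lower in the oligomycin interaction, and 0 to 2 higher in OA against BSA. The 2 members higher in OA against BSA became 0 without a filter, with values rescaled to a fixed sum and to a fixed sum of the other genes, and 1 with quantile normalization and limma-voom. In Dox_OA against Dox_BSA 1 member was higher with a pseudocount of 0.1, and 1 was lower with either fixed sum and 2 with quantile normalization. In Dox_OOA against Dox_OA quantile normalization gave 21 higher and 2 lower, where 2241 of all 12904 genes were higher and 2142 lower. No filter gave 2 lower in that comparison. The cause was not tested. The share of higher among all genes called in OA against BSA went from 56.4% to 38.5% with a fixed sum, and in Dox_OA against OA from 37.9% to 54.6%; that in the oleic acid interaction went from 14.6% to 31.6% with limma-voom. Of 1163 alternatives for 60 single-gene values 18 changed sign or, for Rplp0, reached 0. A further 46 lost their call and 9 gained one. Rpl17 and Rpl30 gained it in OOA against OA with pseudogene reads added, and Rpl22l1 with quantile normalization or without OA replicate 1. Rps27l gained it there with a fixed sum of the other genes, with only the compared groups fitted and without OOA replicate 3. The interaction of Rps14 passed without OA replicate 4 or OOA replicate 2. In OOA against OA, Rplp0 was 0 with quantile normalization, Rpl41 0.002 with a fixed sum of the other genes and 0.0103 with quantile normalization, and Rps2 0.0192 with quantile normalization and 0.0974 with pseudogene reads added. Leaving out replicates gave -0.0332 to 0.0779 for Rpl11, -0.0623 to 0.0506 for Rpl41 and -0.119 to 0.152 for Rps2. Rps27 in Dox_OOA against OOA was 0.0381 and 0.02 with the fixed sums, 0.0992 with quantile normalization, 0.0476 with limma-voom, 0.0312 with Rps27rt reads added and -0.0703 to 0.116 without single replicates. The call of Rpl12 in Dox_OOA against Dox_OA was lost without Dox_OA replicate 1 or 2 or Dox_OOA replicate 1, 2 or 4 (0.095 to 0.164 over all leave-outs), and also without a filter (adjusted p = 0.0948) and with only the compared groups fitted (adjusted p = 0.0858). In OA against BSA, Rps24 was lost in all leave-outs except OA replicate 1 (0.148 to 0.198), and Rpl7l1 without BSA replicate 1, 3 or 4 or OA replicate 1 or 2 (0.122 to 0.168).

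The labels give the replicate numbers no shared source, so the libraries were not treated as paired. Libraries of the same number correlated weakly in their deviations, and not in every pair (mean 0.0397, -0.0436 to 0.175, against -0.0132 for other pairs). That 18 of 24 libraries were closest to their own number is a hint from the data that the numbers may share something. With the replicate block the calls over all genes rose in all 9 contrasts. With the block 62 of 85 members and 3776 of 12904 genes rose in OOA against OA, and 1 and 3741 fell. In Dox_OOA against OOA 58 and 3152 fell. In Dox_OOA against Dox_OA 14 and 2236 rose, and 33 and 2017 were lower in the oligomycin interaction. Depth limits members with few reads, down to a mean of 19.5 reads per library among those tested.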
